A study of Mus musculus with 2 samples.

Results

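The suppressor of cytokine signaling (SOCS) genes and the PIM kinase genes are among the transcripts that cells switch on through STAT proteins when a cytokine receptor, or an oncogenic kinase such as BCR-ABL, is active. They were examined here in leukemic stem cells (LSCs) from mice with a BCR-ABL-driven disease that models chronic myeloid leukemia (CML). The members were chosen by gene symbol. They are the SOCS genes Cish, Socs1, Socs2, Socs3, Socs4, Socs5 and Socs6 and the kinase genes Pim1, Pim2 and Pim3, 10 of the 23284 symbols in the expression tables. All 10 were listed, all averaged 1 FPKM or more (FPKM being a read density normalised to transcript length and sequencing depth), and all had at least 0.1 FPKM in both libraries.

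SOCS proteins bind phosphorylated tyrosines through an SH2 domain and, through a carboxy-terminal SOCS box, join a ubiquitin ligase. CIS, SOCS1, SOCS2 and SOCS3 are the classical feedback inhibitors, made in response to cytokines and acting on the receptors and JAK kinases that induced them. PIM proteins are serine/threonine kinases that are active as soon as they are made, so that their amount is set largely by transcription, and they promote survival and protein synthesis in blood cells. Cish is a widely used transcript readout of STAT5 activity.

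The RNA-seq compared 1 WT library with 1 STAP-1 KO library of LSCs, both on the C57BL/6J background. STAP-1 is an adapter protein, and the KO donors carried a targeted disruption of its gene. In both groups, LSK cells (negative for lineage markers, positive for Sca-1 and c-Kit) were transduced with a retrovirus for human BCR-ABL and GFP and transplanted into lethally irradiated C57BL/6SJL recipients together with supporting bone marrow, the mice being 8 to 14 weeks old. GFP+ CD45.2+ LSK cells were sorted, and the cells of the model were collected at day 11 after the first transplantation. How many mice gave cells to each library is not given in the sources used here. With 1 library per genotype there is no replicate check, no p-value is given, and the genotype cannot be told apart from differences between mice, sorts or preparations. In bulk RNA, fewer cells of a type and less RNA per cell cannot be told apart either.

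The knockout was visible in the data, as Stap1 had 62.0 FPKM in WT and 0.309 FPKM in STAP-1 KO. Of the genes for the sorting markers, Kit stood at 468 and 30.1 FPKM and the Sca-1 gene Ly6a at 285 and 106 FPKM. Markers of other cells differed between the libraries. The 12 mast cell and basophil markers summed to 52392 FPKM in WT and 5355 FPKM in STAP-1 KO, with 11 of them at least 2-fold lower and none at 0. The 5 listed markers of neutrophil primary granules summed to 564 and 4623 FPKM, all 5 at least 2-fold higher. The 6 markers of later neutrophil stages went the other way, from 411 FPKM in sum to 185 FPKM, with 4 at least 2-fold lower and 0 higher. Erythroid markers summed to 221 and 558 FPKM, with Hba-a1 at 34.8 and 379.8 FPKM and the other 3 within 2-fold. T cell markers summed to 15.5 and 48.8 FPKM, most of it Lck at 11.8 and 41.9 FPKM, with 2 of 5 at least 2-fold higher and 1, Cd8a, lower (0.369 and 0.132 FPKM). Of 5 B cell markers, 3 were at 0 in both libraries, among them Pax5, and Cd79b had 3.10 and 17.8 FPKM. The 5 monocyte and macrophage markers summed to 162 and 142 FPKM, with 2 lower and 2 higher. The part of these populations in the values below was not tested.

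The STAT recognition motif is the base around which the inducible members are read. STAT proteins bind as dimers to TTCNNNGAA, which is its own reverse complement, so that a match counts for both strands. STAT6 prefers a wider form with 4 bases between TTC and GAA, also its own reverse complement. Each form was searched by itself, so that overlapping matches would count under both. RefSeq windows of 250 bases before to 50 bases after a transcript start (GRCm38.p6) were searched for 7 of the 10 members. No window was given for Socs2 or Socs5, and Socs6 was left out of the search. The windows searched were those of Cish, Socs1, Socs3, Socs4, Pim1 (with 2 starts), Pim2 and Pim3. TTCNNNGAA was found in 2 of these 8 windows, those of Cish and Socs3, and the wider form in none. Among all 32851 windows, 8.30% held at least 1 TTCNNNGAA and 6.95% at least 1 of the wider form. Cish stood out in having a pair of TTCNNNGAA motifs, as only 150 windows (0.457%) held more than 1. The stretches around the motifs are shown because they differ between members, with the motif letters in capitals.

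Cish, chr9:107296654-107296683, plus strand, 2 motifs separated by 2 bases:
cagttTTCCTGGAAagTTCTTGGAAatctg

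Socs3, chr11:117969502-117969531, minus strand, 1 motif from position -154 to -146 from the start:
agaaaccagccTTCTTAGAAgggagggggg

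The Cish motifs begin at the first base of the RefSeq transcript and lie within exon sequence of the coding transcript Cish-201 of GENCODE M21, which starts further upstream and is annotated there as UTR. The Socs3 motif lies in an intron of a non-coding Socs3 transcript. Socs1 and Pim2 are shown next because their ratios between the libraries were close to that of Cish, while neither motif was in their windows. Both stretches end at the base before the start of the gene in GENCODE M21.

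Socs1, chr16:10785537-10785786, minus strand, 250 bases:
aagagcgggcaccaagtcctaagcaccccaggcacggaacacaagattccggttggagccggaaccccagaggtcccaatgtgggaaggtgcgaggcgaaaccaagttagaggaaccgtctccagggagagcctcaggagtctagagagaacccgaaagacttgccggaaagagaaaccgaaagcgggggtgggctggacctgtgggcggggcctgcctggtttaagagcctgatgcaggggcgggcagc

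Pim2, chrX:7878056-7878261, plus strand, 206 bases:
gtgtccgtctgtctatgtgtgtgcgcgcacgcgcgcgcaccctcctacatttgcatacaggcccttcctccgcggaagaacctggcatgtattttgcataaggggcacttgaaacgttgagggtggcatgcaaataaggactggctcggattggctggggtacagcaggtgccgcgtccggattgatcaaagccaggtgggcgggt

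A motif match describes the sequence only, and the absence of a match says only that these letters are not in this window.

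The members covered a wide range of levels. In the WT library the order was Cish, Socs2, Pim2, Socs1, Pim1, Pim3, Socs3, Socs4, Socs6 and Socs5, from 432 FPKM down to 4.81 FPKM. FPKM values are divided by transcript length, so that levels of different genes can be set roughly side by side, although the ratio between these libraries still varied with length. Precision was judged from the depth. The lowest FPKM values fall on steps, from which about 7520000 effective reads were estimated for WT and 10480000 for STAP-1 KO, and 95% intervals from the reads this implies are given below. They cover counting error only. By these intervals no neighbours in the WT order overlapped. In the STAP-1 KO library the range was narrower, from 133 FPKM for Cish to 5.15 FPKM for Socs5. There Pim2 (29.0 FPKM) overlapped with Pim1 (28.9 FPKM), and Socs1 (24.1 FPKM) with Pim3 (24.0 FPKM), whereas in the WT library Pim2 was 2.495 times Pim1 and Socs1 was well above Pim3.

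**Figure D1:**
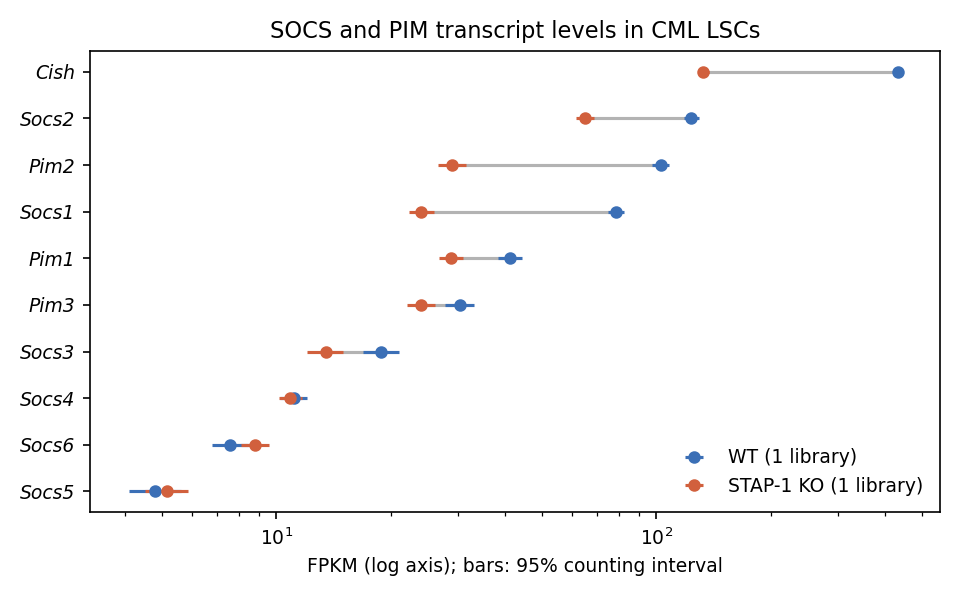
FPKM of each member (log axis) in the WT library (blue) and the STAP-1 KO library (orange), with 95% counting intervals as bars and a grey line joining the libraries. Cish, Socs2, Pim2 and Socs1 were the 4 highest in WT and lie well apart between the libraries, whereas the points of Socs4, Socs5 and Socs6 lie close together.

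Cish encodes CIS, which binds cytokine receptors and competes with STAT5 for its docking sites. It was the most abundant member in both libraries, ranking 173rd of all symbols in WT and 888th in STAP-1 KO. Its level was 432 FPKM in WT (interval from 422 to 441) and 133 FPKM in STAP-1 KO (interval from 129 to 137), about 8558 and 3680 reads. The level in STAP-1 KO was 3.25-fold lower, with a log2 ratio of -1.70 and a counting interval from -1.75 to -1.64. A ratio as low or lower was held by 11.2% of the 10974 symbols that averaged 1 FPKM or more, and by 7.90% of the 671 among them with a mean level within 2-fold of that of Cish. Cish shares its locus on chromosome 9 (107296026 to 107302784) with pseudogene and antisense models on the other strand, Gm17040 and Gm17041, and 13.2% of the 75-base windows of its transcript also occur in them. The library kit does not mark strand, so reads there could come from either.

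Socs1 encodes an inhibitor that blocks the catalytic site of JAK kinases through a kinase inhibitory region. It had 78.2 FPKM in WT and 24.1 FPKM in STAP-1 KO, 3.25-fold lower with a log2 ratio of -1.69 (interval from -1.83 to -1.57). As deposited, Cish and Socs1 differed by the same factor within counting error. Less the medians of genes of like transcript length and GC content, they were at -1.54 and -1.41. Cish was 5.516 times Socs1 in the WT library and 5.517 times in the STAP-1 KO library. None of the 75-base windows of Socs1 occurred in another annotated transcript, and the gene overlaps no other on chromosome 16 (10782240 to 10785536, minus strand).

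Socs2, known for restraining growth hormone signaling and also induced by STAT5, was the second most abundant member. It had 124 FPKM in WT and 65.0 FPKM in STAP-1 KO, 1.90-fold lower and therefore just short of the 2-fold cut-off. Its log2 ratio was -0.93 (interval from -1.03 to -0.83, which includes 2-fold), a smaller difference than that of Cish or Socs1 by intervals that do not overlap. Less the medians of genes of like transcript length and GC content, Socs2 was at -1.29 and Socs1 at -1.41, closer than the width of either interval. In FPKM as deposited, Cish was 3.49 times Socs2 in WT and 2.05 times Socs2 in STAP-1 KO. The pseudogene Gm9847 shares 13.97% of the 75-base windows of Socs2, so some of its reads may have been placed elsewhere.

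Socs3, which like SOCS1 inhibits JAK kinases directly and is classically induced through STAT3, was the least abundant of the inducible SOCS genes. It had 18.9 FPKM in WT and 13.5 FPKM in STAP-1 KO, 1.40-fold lower with a log2 ratio of -0.48 (interval from -0.71 to -0.26). Both Socs1 and Cish were less far above Socs3 in the STAP-1 KO library, where Socs1 was 1.79 times Socs3 against 4.15 times in WT.

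The remaining SOCS members showed no such difference. Socs4 and Socs5, which encode long relatives that act on the epidermal growth factor receptor, had 11.1 and 10.9 FPKM and 4.81 and 5.15 FPKM, with WT first. Socs6, whose product binds the receptor KIT, had 7.55 FPKM in WT and 8.81 FPKM in STAP-1 KO. The log2 ratios were -0.03 for Socs4 (interval from -0.18 to 0.14), 0.10 for Socs5 (from -0.19 to 0.40) and 0.22 for Socs6 (from 0.02 to 0.42). The counting intervals of Socs4 and Socs5 included no difference, and that of Socs6 lay just above it. Summed, these 3 genes had 23.5 FPKM in WT and 24.9 FPKM in STAP-1 KO, while Cish, Socs1, Socs2 and Socs3 summed to 652 and 236 FPKM. Of the windows of Socs6, 10.1% also occur in the pseudogene Gm9449. The last SOCS gene, Socs7, is not a member and was near the limit of detection at 0.686 and 0.154 FPKM, about 35 and 11 reads.

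**Figure D2:**
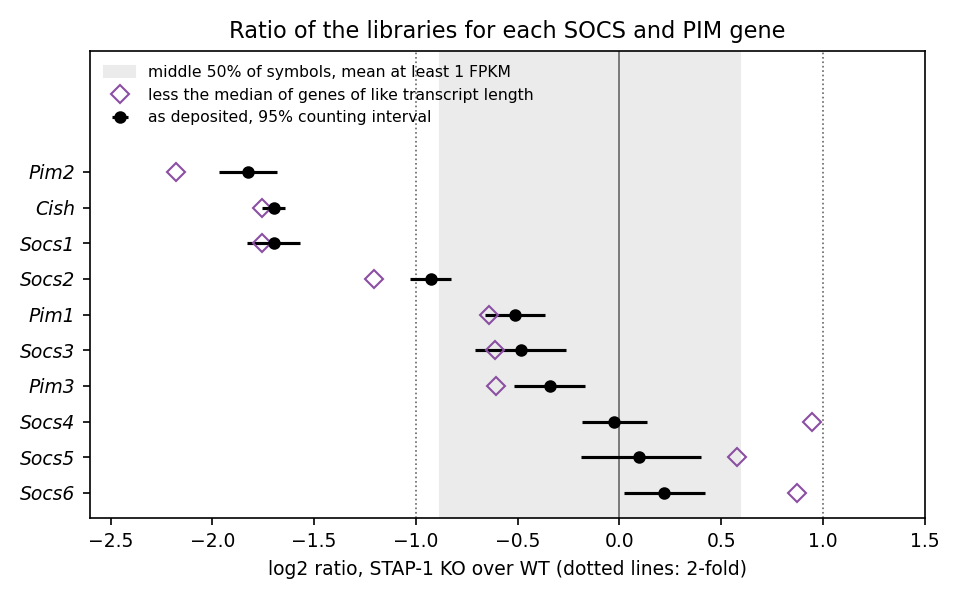
Log2 ratio of STAP-1 KO over WT for each member as deposited (black points, bars for 95% counting intervals) and after subtracting the median of genes of like transcript length (open diamonds). The grey band holds the middle 50% of symbols with a mean of at least 1 FPKM (from -0.88 to 0.59). Pim2, Cish and Socs1 lie beyond the 2-fold line at the left, and Socs4, Socs5 and Socs6 lie near 0 as deposited.

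The PIM genes differed among themselves. Pim2 had 103 FPKM in WT (interval from 97.5 to 108) and 29.0 FPKM in STAP-1 KO (from 26.6 to 31.5), about 1415 and 558 reads. It was 3.55-fold lower, the lowest ratio of all 10 members, with a log2 ratio of -1.82 (interval from -1.97 to -1.68). A ratio as low or lower was held by 9.90% of the 10974 symbols averaging 1 FPKM or more, and by 5.77% of the 2651 among them within 2-fold of its mean level. Pim2 is X-linked (X, 7878262 to 7883432). Across 345 X-linked symbols averaging 1 FPKM or more the median log2 ratio was -0.09, against -0.04 for 10516 autosomal symbols. Xist was at 0 in WT and at 0.849 FPKM in STAP-1 KO, while both libraries held the Y-linked Ddx3y (33.9 and 18.6 FPKM).

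Pim1, the first PIM gene to be found as an insertion site of a leukemia virus in mice, had 41.2 FPKM in WT and 28.9 FPKM in STAP-1 KO. This was 1.43-fold lower (log2 ratio -0.51, interval from -0.66 to -0.37). Of its 75-base windows, 8.57% also occur in the antisense model Gm26885. Pim3 had 30.5 and 24.0 FPKM, 1.27-fold lower (log2 ratio -0.34, interval from -0.52 to -0.17). The interval of Pim2 overlapped with neither. In WT, Pim2 was 2.495 times Pim1 and 3.37 times Pim3, and in STAP-1 KO it was 1.0035 times Pim1 and 1.21 times Pim3, so that the 3 PIM transcripts stood at nearly equal levels. No member shared a 75-base window with another member, so that reads matching a window exactly were not divided among paralogs.

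The makeup of both families shifted accordingly. The SOCS members summed to 676 FPKM in WT and 260.4 FPKM in STAP-1 KO, 2.60-fold lower. Cish made up 63.9% of the sum in WT and 51.1% in STAP-1 KO, Socs1 11.6% and 9.25%, and Socs2 18.3% and 24.96%. Socs3 to Socs6 took larger shares in STAP-1 KO, from 0.711% to 2.79% of the sum in WT and from 1.98% to 5.18% in STAP-1 KO. The PIM members summed to 174 and 81.9 FPKM, 2.13-fold lower. Pim2 made up 58.9% of this sum in WT and 35.4% in STAP-1 KO, next to 23.6% and 35.3% for Pim1 and 17.5% and 29.3% for Pim3.

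**Figure D3:**
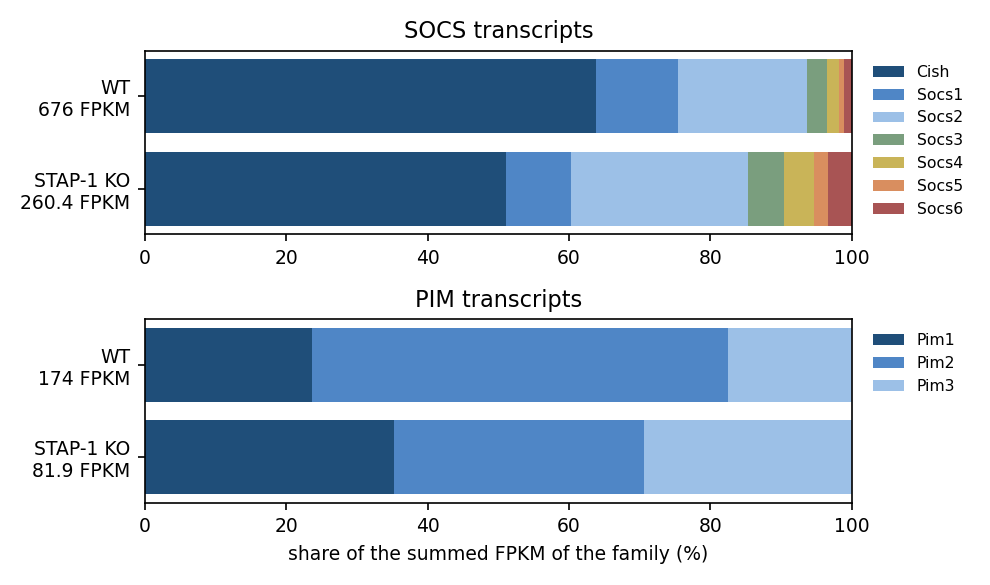
Share of each gene in the summed FPKM of its family (horizontal axis, percent) for the SOCS members (top) and the PIM members (bottom), with 1 bar per library and the summed FPKM beside it. Cish goes from 63.9% to 51.1% of the SOCS sum and Pim2 from 58.9% to 35.4% of the PIM sum, WT first.

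The count of members past the cut-off was set against all genes. Among 12507 symbols with at least 0.1 FPKM in both libraries, 22.9% were at least 2-fold lower and 12.3% at least 2-fold higher in STAP-1 KO. Of the 10 members, 3 were at least 2-fold lower (Cish, Socs1 and Pim2) and 0 at least 2-fold higher. This lies near the background of 22.9%, so the count is not a result about the members. At a 1.5-fold cut-off 4 members were lower, against 32.8% of the symbols, and at a 4-fold cut-off 0, against 8.56%. The median log2 ratio was -0.50 over the members, -0.48 over the SOCS genes and -0.51 over the PIM genes, against -0.04 over the 10974 symbols with a mean of at least 1 FPKM. Of the members, 8 were below 0, as were 51.7% of those symbols. The libraries give a single ratio per gene, so likeness of pattern is weak information. Within 0.25 of the log2 ratio of Cish lay 645 symbols, and within 0.25 of that of Pim2 lay 533.

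Transcript length has to be read beside these ratios. In these libraries long transcripts were lower in STAP-1 KO in general, with a median log2 ratio of 0.51 in the bin of the shortest transcripts and -1.005 in that of the longest, of 20 bins over 10865 symbols. The members past the cut-off were not long. Cish (2850 bases) and Socs1 (2908 bases) fell in a bin with a median of 0.06, and Pim2 (2045 bases) in a bin with a median of 0.36. Less the median of their bins, the log2 ratios were -1.76 for Cish, -1.75 for Socs1, -2.18 for Pim2 and -1.21 for Socs2, which was then past 2-fold as well. On this scale 4 of the 10 members were past 2-fold lower, against 19% of 12360 symbols. Socs4 (6877 bases), Socs5 (4648 bases) and Socs6 (6036 bases) are long, in bins with medians of -0.97, -0.48 and -0.65. On this scale they lay above genes of like length, by 0.95, 0.58 and 0.87. Pim1, Pim3 and Socs3 were at -0.64, -0.61 and -0.61. With GC content taken off as well, these lay nearer to 0, at -0.42, -0.23 and -0.26. Socs4, Socs5 and Socs6 were then at 0.61, 0.49 and 0.53.

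**Figure D4:**
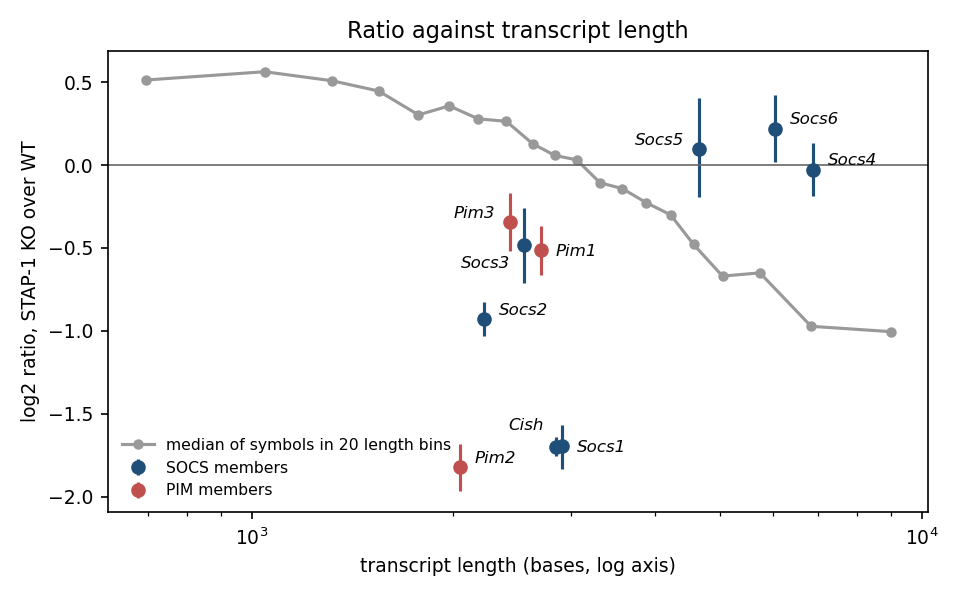
Log2 ratio of STAP-1 KO over WT against transcript length in bases (log axis) for the SOCS members (blue) and PIM members (red), with 95% counting intervals as bars. The grey line joins the medians of all symbols with a mean of at least 1 FPKM in 20 bins of length, from 0.51 to -1.005. Cish, Socs1 and Pim2 lie far below the line and Socs4, Socs5 and Socs6 above it.

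None of the partners of the SOCS box passed 2-fold, where 22.9% of all symbols were lower and 12.3% higher. The SOCS box recruits elongins B and C (Tceb2 and Tceb1), a cullin and a RING protein. Of the 6 listed genes of this ligase, 5 had a log2 ratio above 0 and 1 below, and the median was 0.58. Rnf7, the RING partner of cullin 5, had 51.5 FPKM in WT and 94.2 FPKM in STAP-1 KO, Rbx1 50.1 and 87.9 FPKM, Tceb1 128 and 195 FPKM, Tceb2 114 and 162 FPKM and Cul2 29.5 and 42.9 FPKM. Cul5 itself had 12.9 and 11.9 FPKM. These transcripts are mostly short, and less the median of genes of like length the median of the 6 was 0.43, with Tceb2 at -0.0091.

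Upstream of the members, the JAK kinases were lower with the exception of Jak3. Jak1 had 181 FPKM in WT and 54.0 FPKM in STAP-1 KO, Jak2 48.2 and 13.1 FPKM, Tyk2 31.8 and 8.17 FPKM, and Jak3 14.3 and 14.4 FPKM, so that 3 of 4 were past 2-fold lower, against 22.9% of all symbols. Relative to its target Jak2, the inhibitor Socs1 stood at 1.62 in WT and 1.84 in STAP-1 KO, a ratio of FPKM values within each library. The direction of this difference turned with transcript length taken off, where Socs1 was at -1.75 and Jak2 at -1.20. Of the 7 STAT genes, 3 (42.9%, against 22.9% of all symbols) were past 2-fold lower and 0 (against 12.3%) higher. Stat6 had 87.1 and 37.7 FPKM, Stat5b 27.8 and 12.9 FPKM, and Stat2 10.8 and 4.38 FPKM, while Stat3 (48.8 and 29.6 FPKM) stayed within 2-fold. Stat5a, the partner of Stat5b, had 20.8 and 18.3 FPKM. Cish was 20.8 times Stat5a in WT and 7.27 times in STAP-1 KO. JAK transcripts and most STAT transcripts lay in bins of length with medians below 0. Less the median of genes of like length the median of the JAK genes went from -1.81 to -1.14 and that of the STAT genes from -0.72 to -0.07. On that scale the 3 JAK genes were still past 2-fold lower, whereas 0 of the 7 STAT genes were (Stat6 at -0.98, Stat2 at -0.81 and Stat5b at -0.43), against 19% of 12360 symbols.

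Genes for cytokine receptors that signal through JAK kinases were next. Of 27 receptor genes, 25 had at least 0.1 FPKM in both libraries, and 13 of these (52%, against 22.9% of all symbols) were past 2-fold lower and 1 higher, with a median log2 ratio of -1.401 over the 21 that averaged 1 FPKM or more. Csf2rb2, the β chain gene of the IL-3 receptor alone, had 238 FPKM in WT and 6.17 FPKM in STAP-1 KO. Csf2rb, the β chain gene shared by the IL-3, GM-CSF and IL-5 receptors, had 260.2 and 26.2 FPKM. Il2ra, itself induced by STAT5, had 346 and 24.3 FPKM, Il10ra 73.1 and 7.91 FPKM and Il4ra 112 and 14.9 FPKM. The gene past 2-fold higher was Csf3r, with 1.51 and 13.3 FPKM. Less the median of genes of like length, 12 of the 25 receptor genes were lower and 2 higher, against 19% and 11.6% of all symbols. Of 15 ligand genes, 10 had at least 0.1 FPKM in both libraries, and of these 7 (70%) were past 2-fold lower and 3 (30%) higher, against 22.9% and 12.3% of all symbols. The counts were the same with length taken off, where the shares of all symbols were 19% and 11.6%. Il6 had 384 FPKM in WT and 52.1 FPKM in STAP-1 KO, Il4 274 and 42.2 FPKM, Lif 73.5 and 8.85 FPKM, Csf2 41.9 and 8.69 FPKM, and Il13 19.8 and 1.44 FPKM. The 3 higher ones were low in both libraries and are named after their values were seen, Tslp with 0.288 and 2.57 FPKM, Il7 with 0.118 and 0.969 FPKM and Ifng with 0.401 and 1.15 FPKM.

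Brakes on the pathway outside the SOCS family were mostly nearer to 0 than Cish and Socs1. Ratios as low as those of Cish and Socs1 were held by only 11.2% and 11.3% of symbols averaging 1 FPKM or more, so this is not particular to the brakes. Of 12 such brakes, 4 (33.3%, against 22.9% of all symbols) were past 2-fold lower and 0 higher, with a median log2 ratio of -0.24. Sh2b3, the adapter LNK, had 35.0 FPKM in WT and 7.86 FPKM in STAP-1 KO, Ptprc, which encodes the phosphatase CD45, 107 and 38.2 FPKM, the ubiquitin ligase gene Cblb 6.98 and 1.69 FPKM and Pias3 7.67 and 2.69 FPKM. The phosphatase gene Ptpn2 had 242 and 128 FPKM. With length taken off, Ptprc (-0.82) was no longer past 2-fold and Ptpn2 (-1.05) was. Other STAT5 targets were spread on both sides. Of the 20, 18 had at least 0.1 FPKM in both libraries, and 8 of these (44.4%, against 22.9%) were past 2-fold lower and 2 (11.1%, against 12.3%) higher. The median was -0.71 over the 18 that averaged 1 FPKM or more, and -0.29 less genes of like length. The higher ones, named after their values were seen, were Myc (59.3 and 169 FPKM) and Id1 (17.3 and 48.1 FPKM). With length taken off the counts were the same (8 and 2, against 19% and 11.6% of all symbols), with Cdk6 in place of Id1 among the higher ones. Besides Il2ra, the genes of this list farthest from 0 with 1 FPKM added to each value were Osm (597 and 204 FPKM), Cdkn1a (217 and 66.4 FPKM), Lcp2 (211 and 56.9 FPKM) and the milk protein gene Csn2, which had 48.1 FPKM in WT and was listed at 0 in STAP-1 KO.

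**Figure D5:**
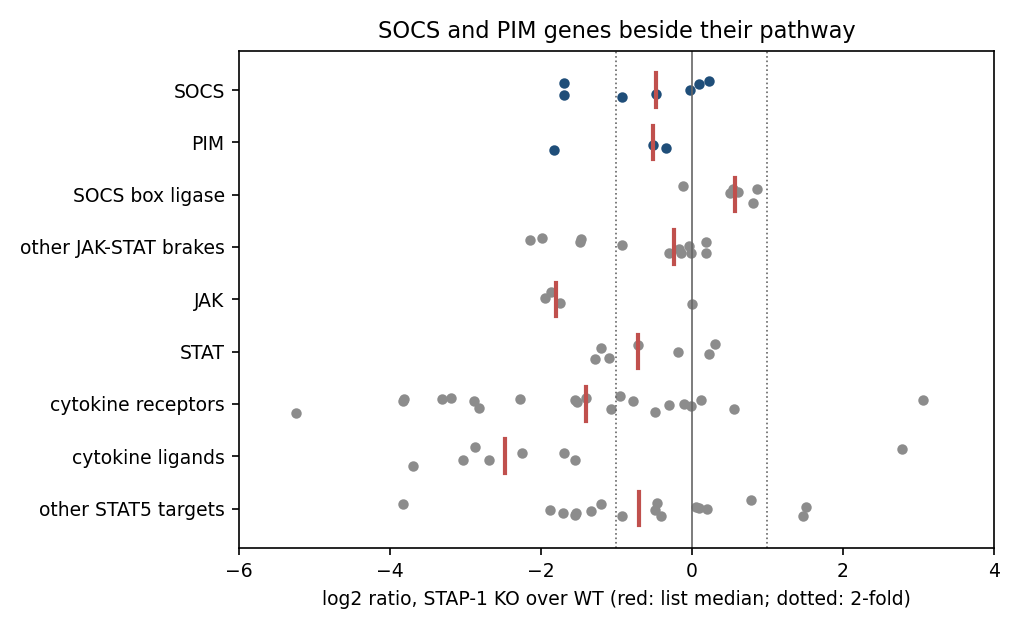
Log2 ratio of STAP-1 KO over WT for the SOCS and PIM members (blue) and for genes of the pathway (grey), 1 point per gene averaging 1 FPKM or more, and the list medians in red. Csn2, listed at 0 in STAP-1 KO, is not drawn but counts in the median of its list. The SOCS and PIM medians (-0.48 and -0.51) lie between those of the SOCS box ligase (0.58) and the JAK genes (-1.81).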

How the data were processed

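RNA was measured in 1 WT and 1 STAP-1 KO library of CML LSCs. The labels name a miRNeasy kit and the methods an RNeasy kit, and cDNA was made with a SMART-Seq kit. The authors deposited FPKM values for 23284 symbols, made from 75-base single reads mapped to mm10 with TopHat 2.0.13 and Bowtie2 2.2.3 and quantified with Cuffnorm 2.2.1, per the labels and methods. The annotation and scaling are not given in the sources used here. FPKM carries no read counts and is not comparable with raw counts.

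Log2 ratios are log2((STAP-1 KO + 0.1)/(WT + 0.1)), which understates changes of low genes. Genes past 2-fold needed at least 0.1 FPKM in both libraries, with no pseudocount. Depth was estimated from genes with 1 transcript below 0.3 FPKM, where, with 213 (WT) and 209 (STAP-1 KO) bases off the transcript, 44.7% of 284 and 44.6% of 345 values came within 0.01 of whole reads. Reads use the longest coding transcript of GENCODE M21 (GRCm38), so that shorter isoforms would mean fewer reads. Intervals are exact (Poisson, Clopper-Pearson, 95%). Of the symbols, 20911 matched GENCODE as written, 1901 through an older symbol and 472 not. Scripts ran in Python 3.11.15 with scipy 1.17.1, pandas 2.3.3, numpy 2.4.6 and matplotlib 3.10.9, and counting, correction, depth and motif steps were tested on simulated data. Promoter windows are those of RefSeq (GRCm38.p6).

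The members and lists were chosen with earlier results of these data known. Named genes are the members, Socs7, Stap1, markers and, per list, at most 5 genes farthest from 0 when 1 FPKM is added to each value, besides partner genes such as Stat5a. Protein sequences were not used here, and some listed genes are not reported here.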

Additional observations from a re-analysis of the deposited data

How the results depend on the processing

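The count of 3 members past 2-fold lower was the same at a floor of 1 FPKM, without a floor and under all 4 other scalings of the libraries. It was 4, with Socs2 added, at a 1.5-fold cut-off and after subtracting the median of genes of like transcript length, alone or with GC content, where 32.8%, 19% and 18.4% of all symbols were lower. At a 4-fold cut-off it was 0, against 8.56% of all symbols. No setting gave a member past 2-fold higher. The median log2 ratio of the members was -0.39 with both libraries scaled to the same sum, -0.63 less the median of genes of like length and -0.34 with GC content taken off as well. Over all settings Cish lay between -1.76 and -1.54, Socs1 between -1.75 and -1.41 and Pim2 between -2.18 and -1.72. Socs4, whose counting interval holds 0, lay between -0.03 and 0.95. The STAT genes lost all 3 calls with length taken off. The count of pathway genes on that scale, the scaling by the sum without mast cell markers and the correction for GC content were added after seeing the data. No paired analysis was possible because each genotype has 1 library, and for the same reason no library could be left out. Depth limits Socs7, at about 35 and 11 reads.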

Other observations

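Genes on which SOCS and PIM proteins act were listed beside the members. These lists share genes with those above, so their counts are not separate from the earlier ones. Jak1, Jak2, Tyk2 and Csf3r, for example, were already counted among the JAK and receptor genes, and Myc and Cdkn1a among the STAT5 targets. Of 22 genes whose products SOCS proteins bind, 19 had at least 0.1 FPKM in both libraries. Of these, 8 (42.1%, against 22.9% of all symbols) were at least 2-fold lower and 2 (10.5%, against 12.3%) at least 2-fold higher in STAP-1 KO, with a median log2 ratio of -0.40. Less the median of genes of like transcript length, 7 were lower and 3 higher, against 19% and 11.6% of all symbols, with a median of -0.30. Kit had 468 FPKM in WT and 30.1 FPKM in STAP-1 KO, Plcg1 34.2 and 4.02 FPKM, Irs2, an insulin receptor substrate, 57.7 and 8.96 FPKM, and Tyk2 31.8 and 8.17 FPKM. Csf3r, the G-CSF receptor that SOCS3 restrains in granulocytes, went the other way with 1.51 and 13.3 FPKM.

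Of 23 PIM substrates and partners, 5 (21.7%) were past 2-fold lower and 5 (21.7%) higher, with a median log2 ratio of 0.16. The share of lower genes is near that of all symbols (22.9%), and that of higher genes is set against 12.3%. Less the median of genes of like length, 2 of the 23 were lower and 3 higher, against 19% and 11.6% of all symbols, so that the share of higher genes was then near that of all symbols. Myc, which PIM kinases stabilise, had 59.3 FPKM in WT and 169 FPKM in STAP-1 KO and the phosphatase gene Cdc25c 10.7 and 24.5 FPKM, whereas Cdkn1a (217 and 66.4 FPKM), Nfatc1 (54.9 and 14.8 FPKM) and Foxo1 (5.37 and 1.43 FPKM) were lower. On the scale less length, Foxo1 (-0.83) and Cdc25c (0.83) were no longer past 2-fold. Pim2 was 1.73 times Myc in WT and 0.171 times Myc in STAP-1 KO.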
